A study of Caenorhabditis elegans with 2 samples.

Results

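Homeobox genes outside the Hox group encode homeodomain transcription factors that do not belong to the Hox cluster. They were chosen here as the 63 protein-coding genes of Caenorhabditis elegans whose symbols start with ceh-, without the Hox gene ceh-13, and 16 further genes known by other symbols: lin-11, mec-3, unc-4, unc-30, unc-42, unc-86, ttx-1, ttx-3, vab-3, vab-7, lim-4, lim-6, lim-7, cog-1, zag-1 and alr-1. The resulting 79 genes were compared with all 19973 protein-coding genes of the nuclear chromosomes. The naming rule uses no binding value, although the rule was written with earlier results of these data known.

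The study mapped, by chromatin immunoprecipitation and sequencing (ChIP-seq), where the nuclear hormone receptor NHR-20 lies on the genome of young larvae. Both samples are biological replicates of 1 group of whole L1 hermaphrodites of strain OP515, genotype unc-119(tm4063) III; wgIs515, in which the wgIs515 transgene makes NHR-20 with GFP and FLAG at its C-terminus. Larvae were starved at L1 after bleaching to synchronize them, collected 6 hours after synchronization, and their sonicated chromatin was immunoprecipitated. The sample descriptions give an antibody against GFP, whereas another label field names nhr-20 as the antibody, so the labels do not settle whether the tagged receptor alone was precipitated. There is no second group, so no condition was compared. The inserted transgene adds tagged receptor to whatever the worm makes from its own nhr-20, and worms without the tag were not analysed here. Because whole larvae were used, strong binding in a few cells and weak binding in many cannot be told apart.

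The homeodomain is a DNA-binding fold of helices, the last of which reads the DNA, and its targets often carry a TAAT core. In nematodes these genes are best known as terminal selectors, which switch on and maintain the genes that give a neuron class its identity, while others pattern the pharynx, the gonadal sheath, muscle or the body axis. Many homeodomain factors act in pairs, as the POU factor UNC-86 and the LIM factor MEC-3 do in touch receptor neurons. NHR-20 is one of the many orphan nuclear receptors of this species, and receptors of this family typically bind variants of the core AGGTCA.

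The names were checked against the encoded proteins. A signature of the third homeodomain helix, tryptophan or phenylalanine, then phenylalanine or tyrosine, then N and R each after any residue, was found in the translated coding sequence of 63 of the 79 genes (79.7%) and of 0.971% of all protein-coding genes. This wider form was chosen after the strict form W-F-x-N-x-R had been read, which 56 of the 79 genes hold. The 16 genes without the wide form are ceh-49, ceh-100 and 14 with numbers from ceh-75 to ceh-93. Lack of a short signature does not show that a homeodomain is missing.

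The authors' thresholded list holds 6423 summits, each the position of strongest enrichment in a called region. A summit was counted for a gene as a promoter summit when it lay between 1000 bp upstream and 300 bp downstream of any annotated protein-coding start. Intron summits lay inside the gene outside its exons and promoter windows, and upstream summits lay beyond the promoter window and up to 5000 bp before the first start. The windows below show the DNA at the centre of summits in promoters, in an intron and upstream of members, chosen because they carry the binding described in the next paragraphs. Each reaches 50 bp to either side of the summit in the RefSeq genome of build ce11 (WBcel235), on the strand of the gene and 5′ to 3′. Capitals mark any match, on either strand, to the nuclear receptor core AGGTCA, the homeodomain core TAATTA, the GATA factor core GATAA, the GA repeat GAGAGA or the E-box CACGTG. On the strand shown a match may read as its reverse complement, such as TTATC or TCTCTC.
ceh-20 promoter, chrIII:6979018-6979118, + strand: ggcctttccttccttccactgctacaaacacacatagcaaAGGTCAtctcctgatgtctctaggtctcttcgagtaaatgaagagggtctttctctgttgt
ceh-39 promoter, chrX:1856319-1856419, - strand: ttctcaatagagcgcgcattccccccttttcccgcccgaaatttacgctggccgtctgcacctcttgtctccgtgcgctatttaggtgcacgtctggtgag
ceh-83 promoter, chrII:1736539-1736639, - strand: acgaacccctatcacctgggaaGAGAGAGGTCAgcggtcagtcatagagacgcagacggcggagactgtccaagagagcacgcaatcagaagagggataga
ceh-23 promoter, chrIII:7839061-7839161, + strand: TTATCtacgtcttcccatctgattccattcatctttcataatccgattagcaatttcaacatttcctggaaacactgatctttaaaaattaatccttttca
ceh-22 internal start, chrV:10672739-10672839, + strand: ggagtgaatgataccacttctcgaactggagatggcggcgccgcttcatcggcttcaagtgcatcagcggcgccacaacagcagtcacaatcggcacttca
ceh-18 intron, chrX:3854082-3854182, - strand: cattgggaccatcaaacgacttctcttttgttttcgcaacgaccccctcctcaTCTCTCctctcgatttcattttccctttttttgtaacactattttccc
mec-3 upstream, chrIV:10463309-10463409, - strand: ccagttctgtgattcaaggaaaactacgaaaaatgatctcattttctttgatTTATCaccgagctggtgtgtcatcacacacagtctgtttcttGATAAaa

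The ceh-20 window has AGGTCA close to its centre. The ceh-83 window has a GA repeat that runs into AGGTCA, the overlap being 1 run of capitals. Those are the only AGGTCA matches among the windows of this width at the 15 distinct summits of members. The windows of ceh-39 and ceh-22 hold none of the 5 motifs. The GATA core stands at the first base of the ceh-23 window and at a pair of places in that of mec-3, and the ceh-18 window holds a GA repeat inside a pyrimidine-rich stretch. Windows of the ceh-38 and ceh-7 summits are not shown.

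Few homeobox genes had a thresholded NHR-20 summit in the promoter. The count was 6 of 79, or 7.59% (95% exact Clopper-Pearson interval 2.84 to 15.8%), against 20.6% of all protein-coding genes (4121 of 19973). An intron summit was present in 1 gene, ceh-18, or 1.27% (0.032 to 6.85%), against 3.51% of all genes. Upstream summits were present at 8 genes, or 10.1% (4.47 to 19%), against 22.7%. At least 1 of these 3 kinds was present at 14 genes, or 17.7% (10 to 27.9%), against 38.1%, and 65 genes had none. The upper bounds for promoter, upstream and any summit lie below the share of all genes, while the bound for introns does not. The intervals cover counting error only, genes are not replicates, and no test of the difference was made.

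**Figure D1:**
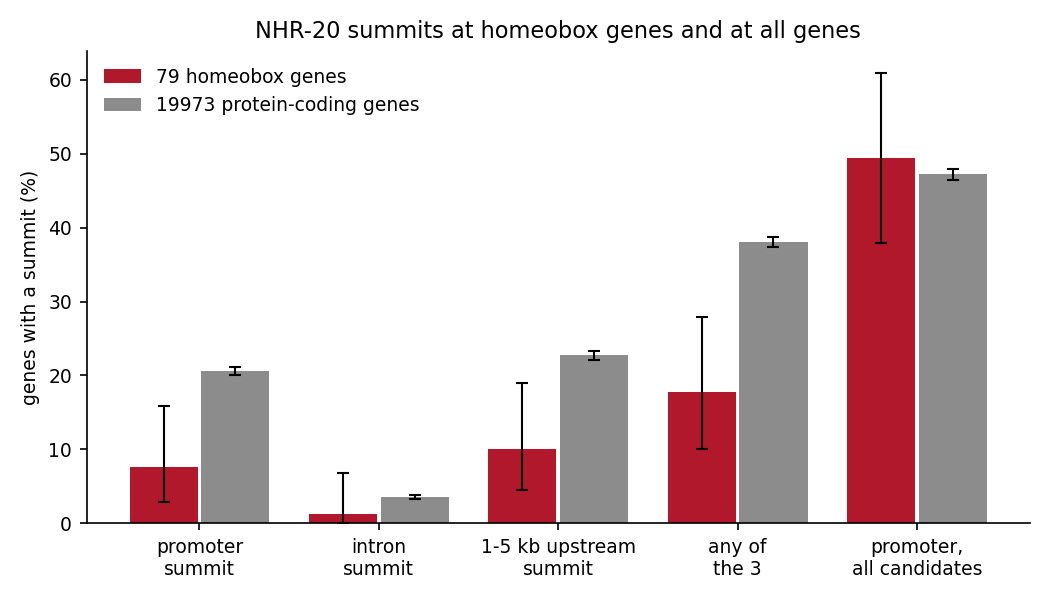
Share of genes (y axis, percent) with a summit of each kind (x axis), for the 79 homeobox genes in red and all 19973 protein-coding genes in grey; error bars are 95% exact binomial intervals. The red bars are lower for the thresholded kinds, at 7.59 against 20.6% for promoters, and level with the grey bar for all candidate regions, at 49.4 against 47.2%.

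The homeobox genes have longer introns and more free DNA upstream. The promoter window has a set length for each start and the upstream window ends at 5000 bp, so free DNA upstream does not widen them. A gene with several starts has more promoter window, which the densities below take into account. The median distance to the next protein-coding gene upstream was 2682 bp for members and 942 bp for all genes, and the median intron length was 1691 bp and 722 bp. Per length of DNA, members had 4.38 thresholded summits per 100 kb of promoter window (6 in 137 kb), against 14.6 for all genes. The intron density was 0.536 (1 in 186 kb) against 3.65, and the upstream density 2.85 (9 in 316 kb) against 7.18. All 3 densities were thus lower for members. Among genes with at least 2000 bp free upstream, 2 of 44 members (4.55%, 0.555 to 15.5%) and 16.7% of all genes had a promoter summit.

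For promoters the difference was not seen when all candidate regions were counted, and for the other kinds the members' share of genes was somewhat higher. The authors also deposited a list of 30000 candidate regions from the pooled replicates, most of them below their reproducibility threshold. Its title names both peaks and background as input to the reproducibility scoring, so a candidate alone shows no binding. For the strongest promoter candidate of a member, the deposited −log10 q-value ran from 0.09 (ceh-30 and ceh-82) to 4.18. A candidate lay in the promoter of 39 of the 79 genes, or 49.4% (37.9 to 60.9%), and of 47.2% of all genes. An intron candidate was present at 22.8% of members and 16.6% of all genes, and an upstream one at 67.1 and 56.7%. At least 1 of the 3 kinds was present at 78.5 and 70.8%. Per length, members had no more candidates than all genes, at 18.2 and 23.7 per 100 kb of intron and 27.8 and 29.9 upstream. Promoter windows of members held 42.3 candidates per 100 kb and those of all genes 44.3. The strongest promoter candidate had a lower signal at members. Among genes whose strongest one fell below the threshold the medians were alike, at 34.65 for members and 34.31 for all genes. The signal, which the authors' caller assigned to each region, had a median of 40.87 for the strongest promoter candidate of the 39 members and 68.88 for that of all genes with one. Of genes with a promoter candidate, 15.4% of members and 43.7% of all genes had one past the threshold. The strongest candidate ranked within the first 10000 by signal for 13 members (16.5%) and for 27.6% of all genes.

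**Figure D2:**
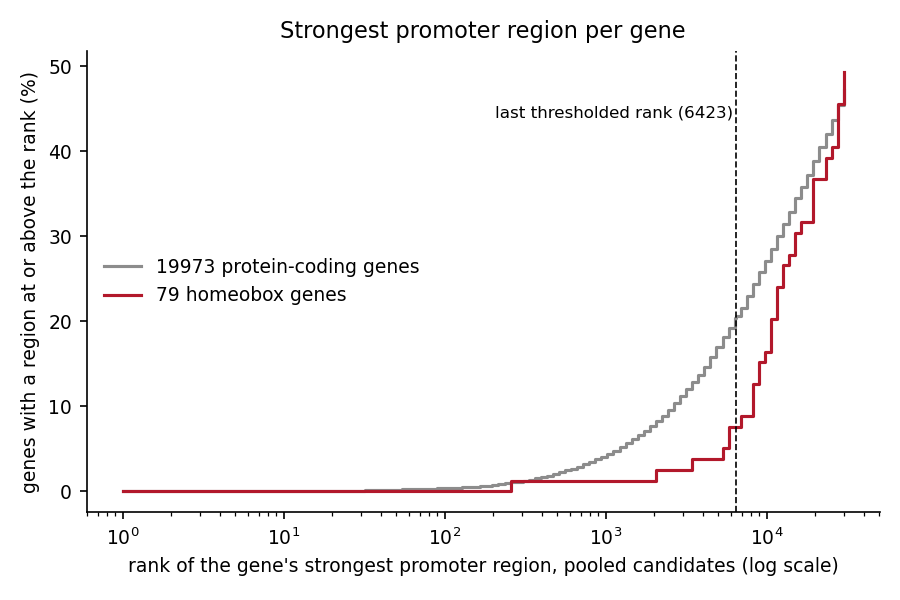
Cumulative share of genes (y axis, percent) whose strongest promoter region reaches a given rank by signal in the pooled candidate list (x axis, log scale; rank 1 is the strongest), for homeobox genes in red and all protein-coding genes in grey; the dashed line is the last thresholded rank, 6423. The red line lies below the grey one over most of the ranks, at 7.59 against 20.6% at the threshold, and both end near 49.4 and 47.2% at rank 30000.

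The strongest promoter summit of the group was that of ceh-38, a CUT gene of the ONECUT kind. Its region (chrII:6951387-6951752) had a summit 38 bp after the first start and a signal of 769.2, rank 236 of 6423. Replicate 1 gave a signal of 482.3 at rank 227 and replicate 2 gave 289.4 at rank 253. Both replicates thus placed it among their strongest regions. The same summit lies in the promoter window of malt-1, so it cannot be given to one of these genes alone.

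The promoter summit of ceh-20, a PBX factor and Hox cofactor, lay 816 bp upstream (chrIII:6978870-6979265) and had a signal of 257, rank 1884. Its replicate values were 177.7 at rank 1715 and 77.79 at rank 2366. It is the summit shown with AGGTCA near its centre, and no other protein-coding start is closer. ceh-38 and ceh-20 are the members whose promoter summits were above the list's median signal of 169.5.

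The promoter summit of ceh-39, an ONECUT gene known as an X-linked signal in sex determination, lay 197 bp upstream (chrX:1856171-1856566), with a signal of 161.8 at rank 3380. Replicate 1 gave 100.5 at rank 3640 and replicate 2 gave 62.15 at rank 3077. The gene also had an upstream summit 2593 bp before its start (chrX:1858681-1858874), with a signal of 229 at rank 2211. This upstream summit was thus the stronger of the pair. It lies 54 bp from a tRNA gene, and T26C11.8 starts nearer than ceh-39, at 1957 bp. The first summit is also the upstream summit of the neighbouring CUT gene ceh-21, 3633 bp from that gene's start, and lies 104 bp from a non-coding RNA gene.

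The other 3 promoter summits were weak ones of the thresholded list. For ceh-83, a homeobox gene given no class here, the summit lay 56 bp upstream (chrII:1736391-1736786) with a signal of 106.8 at rank 5180, and with replicate values of 69.7 at rank 5338 and 35.75 at rank 5557. ceh-23, a homeobox gene of sensory neurons and the interneuron AIY, had a summit 481 bp upstream (chrIII:7838913-7839308) with 102.7 at rank 5381, from 73.16 at rank 5091 and 29.47 at rank 6851. For ceh-22, an NK-2 gene of pharyngeal muscle, the summit (chrV:10672591-10672986) had 98.73 at rank 5609, from 58.15 at rank 6338 and 34.99 at rank 5694. It lies 155 bp after an internal start, within an exon of the gene and 871 bp from the first start. With the first start alone ceh-22 is thus not counted, and the share falls to 6.33%, against 19.2% of all genes. In replicate 2 the ceh-23 region ranked beyond 6423, the number of thresholded summits.

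Over these 6 promoter summits the median signal was 134.3, against 182.3 for the 3609 promoter summits of all genes. A region of each replicate, among the 6423 strongest there, lay within 200 bp of 5 of the 6 (83.3%) and of 82.7% of all promoter summits. The members' promoter summits were thus recovered by both replicates about as often as others.

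The ceh-18 intron summit is the only one in an intron of a member. CEH-18 is a POU factor of the gonadal sheath, where it takes part in the control of oocyte meiosis. The summit (chrX:3853934-3854329) lay 1430 bp upstream of an internal start and 3665 bp from the first, with a signal of 114.6 at rank 4827. Replicate 1 gave 104.4 at rank 3472, and replicate 2 had no region within 200 bp. It rests on 1 replicate, and a non-coding RNA gene lies 91 bp away.

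Upstream summits were stronger, but several lie closer to other genes. The strongest belongs to ceh-44, a CUX gene active across neurons (WBGene00000464, cone-1 in the Ensembl annotation). It was found 1799 bp before the first start (chrIII:2528697-2528954) with a signal of 508 at rank 610, from 316.9 at rank 632 and 191.5 at rank 589. It lies 125 bp from the start of rbc-2 and in the promoter windows of rbc-2, ndua-8 and Y54F10AM.15. ceh-24, an NK-2 gene of pharyngeal and vulval muscle, had a summit 4522 bp upstream (chrV:13808511-13808906) with 225.7 at rank 2256, and swan-1 starts nearer, at 1472 bp.

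mec-3 was the only one of the 16 members known by other symbols with any counted summit (6.25%, against 38.1% of all genes). MEC-3 is the LIM factor that specifies touch receptor neurons. The summit lay 1492 bp before the first start (chrIV:10463161-10463556) with a signal of 173.2 at rank 3139. Replicate 1 gave 118.7 at rank 3007 and replicate 2 gave 50.21 at rank 3893. Its pooled rank is thus in the middle of the thresholded list and both replicates held it, but the start of ugt-43 is nearer, at 1229 bp. No candidate lay in the mec-3 promoter window itself.

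ceh-5, a homeobox gene related to Vax of vertebrates, had 2 upstream summits (both on chromosome I), which with ceh-39 makes it 1 of the 2 members with 2 summits. One lay 1752 bp upstream with a signal of 498.2 at rank 631, from 352.8 at rank 490 and 138.2 at rank 1057. The other lay 4823 bp upstream with 436.2 at rank 805, and falls 370 bp from the start of eat-16. The nearer one lies inside ocrl-1 and eat-16, although ceh-5 has the closest start. The remaining upstream summits were weak. That of ceh-89 had 101.5 at rank 5444, 22 bp from a tRNA gene, and F28H6.8 starts nearer, at 2688 against 4914 bp. That of ceh-7 had 100.8 at rank 5490, inside cup-16. Outside the counted kinds, ceh-8 had a summit with 331.3 at rank 1298 in an exon (chromosome I), which is a promoter summit of col-63.

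**Figure D3:**
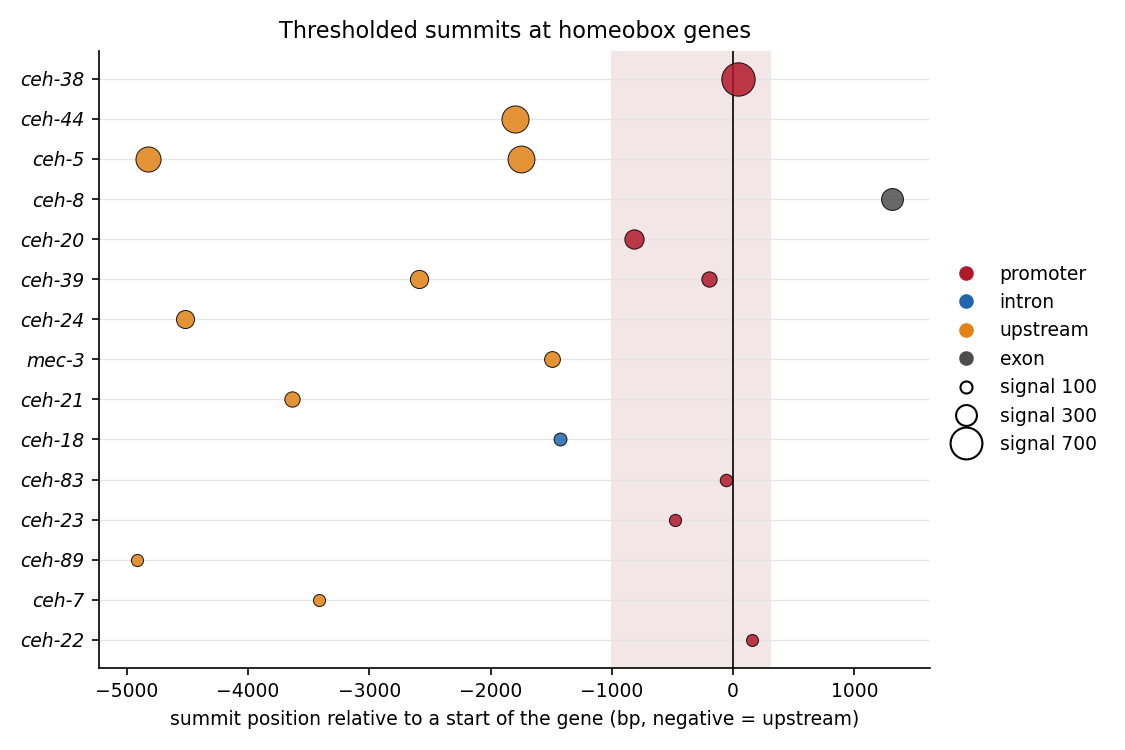
Position of each thresholded summit at a homeobox gene (x axis, bp from a start of the gene, negative is upstream; y axis, gene), with colour for the kind and circle area rising with signal; the shaded band is the promoter window from 1000 bp upstream to 300 bp downstream. The largest promoter circle is ceh-38 at 38 bp (signal 769.2), and the strong upstream circles of ceh-44 and ceh-5 lie outside the band. The ceh-39 promoter summit is drawn again on the line of ceh-21.

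Counted once each, the members' summits of the 3 kinds number 15. Their median signal was 173.2, against 169.5 for all thresholded summits, and 8 lay above the list's median. Of these 15, 12 (80%) had a region in both replicates among the 6423 strongest, as did 80.5% of all summits, and all 15 had one in replicate 1. For 8 of the 15 the nearest protein-coding start belongs to a member: the 6 promoter summits, the ceh-18 intron summit and the nearer ceh-5 summit. When each summit was given to the nearest start alone, 7.59% of members had a promoter summit, against 16.3% of all genes. That 16.3% is close to the members' upper bound of 15.8%. By the same assignment 1.27% of members had an upstream summit, against 4.86% of all genes. When upstream DNA was followed to the next gene only, 3.8% did, against 7.99%.

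**Figure D4:**
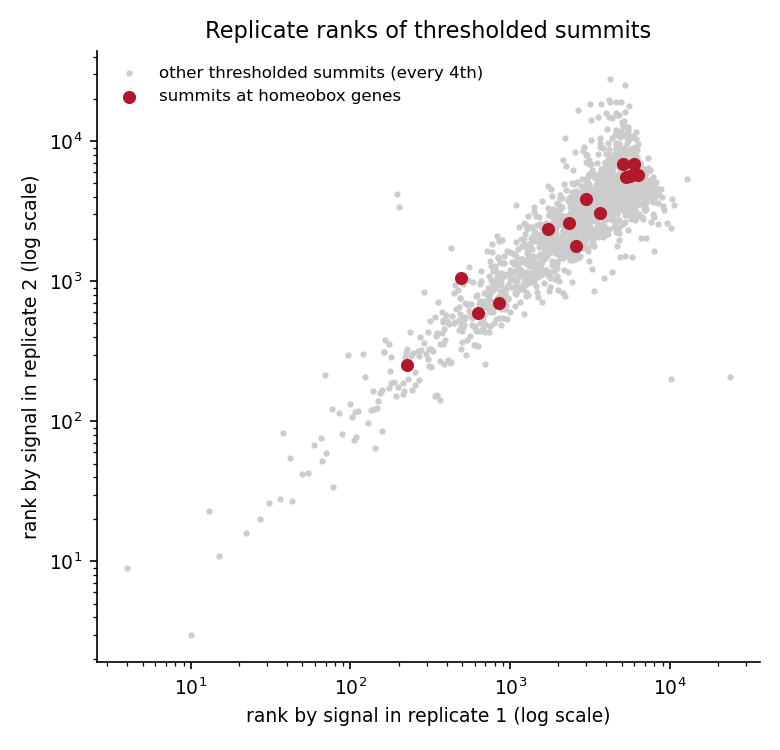
Rank by signal in replicate 1 (x axis) and replicate 2 (y axis), both log scales with rank 1 the strongest, for the members' summits in red and an evenly taken sample of the other thresholded summits in grey. The red points lie within the grey cloud, from ceh-38 at 227 and 253 to ceh-22 at 6338 and 5694. The ceh-18 summit has no replicate 2 region and is not drawn.

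The CUT class had the shortest median distance from the first start to a summit, 3038 bp against 6047 bp for all genes. Of 7 CUT genes, 2 had a promoter summit (28.6%, against 20.6% of all genes), 3 an upstream summit (42.9 against 22.7%) and 4 any (57.1 against 38.1%). All 3 shares were above those of all genes, but 7 genes are too few to read a difference from. The counts are also partly shared, since ceh-41, ceh-21 and ceh-39 lie in a row on chrX with gaps of 103 and 1137 bp. ceh-41, ceh-48 and ceh-49 had no counted summit, and no candidate in the promoter. The class median of 3038 bp is the distance of ceh-41, to a summit in none of its counted windows. The classes are small, and no class was tested against another.

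The 12 paired and paired-like genes, many of them selectors of neuron identity, had no counted summit, against 38.1% of all genes. Their median distance to a summit was 12902 bp. Candidates below the threshold lay in 8 of their promoters (66.7%), while 47.2% of all genes had a promoter candidate of any strength. With 12 genes these counts set no trait of the class. vab-3, the Pax6 gene of head patterning, came nearest: its candidate at position -77 bp had a signal of 85.88 at rank 6429, just below the last thresholded signal of 85.96. Its replicate values were 50.29 at rank 7243 and 27.5 at rank 7399, so neither replicate alone placed it among the first 6423. The lowest member signal inside the list was the 98.73 of ceh-22.

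alr-1, the Aristaless gene that acts in touch neurons, had a promoter candidate with a signal of 64.44 at rank 8277. ceh-37, an Otx gene of olfactory neurons, had one of 60.93 at rank 8639. unc-42, a gene of command interneurons and sensory neurons, had one of 47.37 at rank 10668. These 3 regions lie in the upper part of the sub-threshold list. The candidate of ttx-1, the Otx gene of the thermosensory neuron AFD, was far weaker at 26.69 and rank 18966, in replicate 1 alone. The nearest summit to ttx-1 lay 53092 bp away. unc-4 and unc-30, which set motor neuron identity, and ceh-10, a partner of ttx-3, had no promoter candidate.

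Of the 7 LIM genes, mec-3 was the only one with a counted summit (14.3%, against 38.1% of all genes). lim-7, a gene of the gonadal sheath, had a promoter candidate of 48.72 at rank 10413, with regions in both replicates at ranks 12115 and 8263. lim-4, which sets the olfactory neuron AWB apart, had one of 26.57 at rank 19060, seen in replicate 1 alone. lin-11, ttx-3, ceh-14 and lim-6 had no promoter candidate, and their nearest summits lay at 12913, 11445, 8664 and 18316 bp. For the LIM class the list thus holds 1 summit, more than 1 kb from the gene that it is counted for.

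Among the 3 POU genes, unc-86, which acts with mec-3, had a promoter candidate of 45.13 at rank 11142, with ranks of 14390 and 11744 in the replicates. ceh-18 had one of 45.87 at rank 10981 beside its intron summit, in replicate 1 alone. ceh-6, a gene needed for the excretory canal, had one of 19.03 at rank 27482 that neither replicate list held. All 3 promoters had a candidate, against 47.2% of all genes, and none a thresholded summit, against 20.6%. The 3 sine oculis genes (ceh-32, ceh-33 and ceh-34) gave the same counts, with ceh-34, which specifies pharyngeal neurons, the strongest at 57.69 and rank 9026. With 3 genes a class, nothing can be read from these counts.

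Of the 17 genes of the NK class and its relatives, 3 had a counted summit (17.6%, against 38.1% of all genes): ceh-22, ceh-24 and ceh-5. ceh-43, the Distal-less gene, had a promoter candidate of 50.85 at rank 10016, in replicate 1 alone. cog-1, an Nkx6 gene of taste neuron asymmetry, had one of 23.67 at rank 21628, also in replicate 1 alone. vab-7, the even-skipped gene of posterior patterning, had none, and its nearest summit lay 15038 bp away. Promoter candidates were present at 6 of 17 genes of the class (35.3%), against 47.2% of all genes. zag-1, the zinc finger homeobox gene of the ZEB family, had none, with a summit 10393 bp away, and the TALE genes ceh-40 and ceh-60 also had none.

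The 26 ceh- genes that were given no class had promoter summits at 2 genes, ceh-83 and ceh-23 (7.69%, against 20.6% of all genes). They had upstream summits at ceh-7 and ceh-89 (7.69%, against 22.7%). ceh-74, ceh-100 and ceh-93 had promoter candidates with signals of 68.57, 67 and 65.52 at ranks 7817, 7998 and 8162, that of ceh-100 in replicate 1 alone. ceh-84 was the member farthest from a summit, at 148897 bp. Over all 33 members whose strongest promoter candidate fell below the threshold, signals ran from 17.45 to 85.88 with a median of 34.65, against 34.31 for the corresponding 5310 genes of the genome. Both replicates held a region there for 14 of the 33 (42.4%) and for 49.7% of the 5310.

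**Figure D5:**
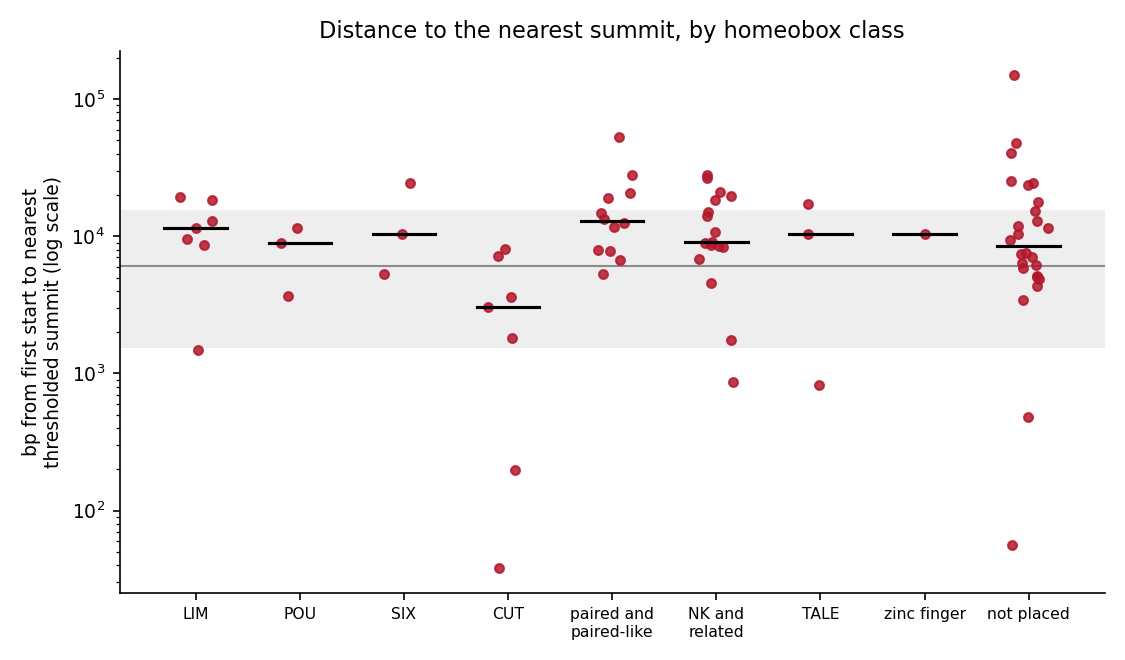
Distance from the first start of each homeobox gene to the nearest thresholded summit (y axis, bp, log scale) by class (x axis); points are genes, black bars class medians, the grey line the median of all protein-coding genes (6047 bp) and the grey band their middle range from 1562 to 15207 bp. The CUT median, 3038 bp, lies below the grey line and the medians of the other classes above it.

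Over all 79 genes the median distance to a summit was 9457 bp, against 6047 bp for all genes, and 38 (48.1%) lay more than 10 kb away, against 36.5%. Members are spread unevenly over the chromosomes: 29.1% of them but 13.7% of all genes lie on chrX. On that chromosome 1 of 23 members had a promoter summit (4.35%), against 22.4% of its genes. The members' promoter share was below that of all genes on each of the 6 chromosomes, with 2 of 10 (20%) against 25.6% on chrIII the closest. The lower share was therefore present on chrX and off it.

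Other transcription factor genes were read in the same way, as counts only. Of the 6 Hox genes, 2 had a promoter summit, lin-39 with a signal of 152.1 and ceh-13 with 128.6. Of 14 homeobox genes outside the naming rule, 2 did (14.3%), dve-1 with 92.45 and unc-62 with 91.54. The bHLH genes had promoter summits at 8 of 38 (21.1%), near the share of all genes, and the GATA factor genes at 3 of 11 (27.3%). The 3 cofactor genes listed each had one, but they were listed with their summits known, so the count follows from the choice and is no contrast: unc-37, the Groucho corepressor, with 158.3, lsy-22, related to it, with 111.3, and ldb-1, the LIM-domain binding partner, with 97.78. lsy-22 and ldb-1 also held 3 intron summits each. These lists are small, and none was tested against the 79 genes.

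In windows reaching 100 bp to either side of the summit, AGGTCA was present in 3 of the 15 member summits (20%) and in 8.41% of all 6423. TAATTA was present in 1 (6.67%) and in 5.09%, and GATAA in 5 (33.3%) and 43.9%. GAGAGA was present in 7 (46.7%) and 39.6%, and CACGTG in 1 (6.67%) and 11.6%. With 15 windows each share moves by 6.67 points per window, so these shares describe the windows and set no order between motifs. A match is a description of the letters and shows no site.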

How the data were processed

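ChIP-seq of NHR-20 was deposited as region lists for 2 biological replicates and their pool. Per the notes deposited with the samples, both replicates were compared with the same control, and the thresholded list was made by scoring reproducibility between them (irreproducible discovery rate, IDR). The aligner, the calling tool and the IDR cutoff were not given in the sources used here. The lists hold the signal that the authors' caller gave each region, and a −log10 q-value as deposited, which is 4.18 in every thresholded region. Regions were therefore ranked by signal, and signals were compared only within a list. The depth is unknown, as the lists give no read totals. The ce10 lists were not used here, and 0 value columns were left unmatched.

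Summits of the ce11 lists were assigned to genes of Ensembl release 115, with RefSeq symbols matched through WormBase identifiers for 19965 of 19973 genes. A replicate region within 200 bp counted as a match. Members are counted beside all genes, with exact binomial intervals and no tests, since there is 1 group. The members, classes and comparison lists were chosen with earlier results of these data known. Genes named are those with the strongest promoter, intron and upstream summits, members with most summits, all LIM and POU genes and all members known by other symbols. Further genes were named after their values were seen. Assignment was tested on simulated data. Alternatives covered the region list, replicates, starts, windows, assignment, membership and match distance. Python 3.11.15, numpy 2.4.6, scipy 1.17.1 and matplotlib 3.10.9 were used.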

Additional observations from a re-analysis of the deposited data

How the results depend on the processing

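Of 47 alternatives, 32 left the value within the counting interval of the main one and 15 moved it. Of the 38 that bear on the 4 gene counts, 34 kept the members' share below that of all genes, and the other 4 are those that used all candidate regions. There the members' shares were not lower: they were 49.4% for promoters (47.2% of all genes), 22.8% for introns (16.6%), 67.1% upstream (56.7%) and 78.5% for any (70.8%). The promoter interval, 37.9 to 60.9%, holds the share of all genes, and no interval is given for the others. That list is longer by construction, so both shares are higher in it. Per length of DNA members had no more candidates than all genes, and why the shares were not lower was not tested. With only summits above the median signal the members' shares were 2.53% for promoters (12.3% of all genes), 0% for introns (1.89%) and 8.86% for any (24.1%). Among summits matched in both replicates the intron share was 0%, against 2.92% of all genes, because the ceh-18 summit has no replicate 2 region. Among the 16 members known by other symbols the shares were 0% for promoters (20.6% of all genes), 0% for introns (3.51%) and 6.25% for any (38.1%). Upstream shares were 1.27% by nearest start (4.86% of all genes) and 3.8% up to the next gene (7.99%). In windows of 50 bp on each side TAATTA and CACGTG were each present in 0% of member summits, against 1.6 and 8.02% of all summits. Leaving out a replicate gave promoter shares of 7.59 to 8.86%, intron shares of 1.27 to 1.27%, upstream shares of 10.1 to 11.4% and any shares of 17.7 to 19%. The shares of all genes were then 20.3 to 20.7%, 3.59 to 3.6%, 22.1 to 22.7% and 37.4 to 38%. The equal intron count hides different genes: without replicate 1 ceh-18 is lost and vab-3 gained. The promoter count without replicate 1 shares 5 of the 6 genes, losing ceh-23 and gaining ceh-74 and ceh-93, and the upstream count shares 7 of 8, losing ceh-7 and gaining ttx-1. Without replicate 2 no gene is lost and ceh-18 gains an upstream summit. No paired analysis was possible because there is 1 group. A summit in 1 more or fewer gene moves a share of members by 1.27 percentage points, and with unknown depth the absence of a summit shows only that none was detected past the threshold.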
